A study of Mus musculus with 20 samples.

Results

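RNA for 10 marker genes of liver macrophages was measured in whole livers of mice fed a fibrosis-inducing diet or control chow, with and without thrombospondin-1 (TSP-1). The genes were 5 markers of Kupffer cells (Clec4f, Timd4, Marco, Cd5l and Cd163), 3 general macrophage markers (Adgre1, Csf1r and Cd68) and 2 markers of monocytes and other myeloid cells (Ly6c2 and Itgam). They were chosen by gene name among the 38924 rows of the expression table: 9 were found under their name and 1, Adgre1, through its Ensembl identifier, since the table carries it under its older symbol Emr1. All 10 were among the 14524 genes that were tested, which had more than 0.5 FPKM (fragments per kilobase of transcript, scaled to the fragments assigned in the library) in at least 5 of the 20 libraries. Of these 10, Cd163 passed that filter only through the 10 control diet libraries and Itgam only through the 10 CDAHFD libraries, so both could pass only with a difference between diets. Timd4 passed in 12 libraries, the 10 on control diet and HFWT3 (0.567 FPKM) and HFKO5 (1.21 FPKM) on CDAHFD. The CDAHFD libraries alone were too few for it to pass, so its direction was also set by the filter. Ly6c2 passed in 17.

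The 4 groups held 5 male mice each. The background is given as C57/BL6 for all mice in the labels and as C57BL/6J in the study's methods. NDWT were wild type (WT) mice on control chow, NDKO were TSP-1 knockout mice on control chow, HFWT were WT mice on CDAHFD and HFKO were TSP-1 knockout mice on CDAHFD. CDAHFD is a high fat diet without choline and with limited methionine, whose protein is replaced by defined L-amino acids. It was fed for 12 weeks to mice that were 5 weeks old at purchase and were acclimated for 1 week. The knockout is a whole-body allele bought as a separate line, so genotype and line of origin cannot be told apart. Each library came from 1 mouse and from a piece of 1 liver lobe, which holds hepatocytes, endothelium, stellate cells and leukocytes together.

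Kupffer cells are the macrophages that reside in the liver sinusoids, where they clear particles, bacteria and spent red cells from portal blood. In the healthy mouse liver they derive largely from embryonic precursors and renew themselves, and Clec4f and Timd4 mark them. When resident cells are lost, blood monocytes, which carry Ly6C and CD11b, enter the liver and can become macrophages; such newcomers gain CLEC4F before TIM4. CSF1R, the receptor for the growth factors CSF1 and IL-34, maintains macrophages of either origin.

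Promoters of 4 of the genes are shown because their RNAs represent the different responses described here: Timd4 and Clec4f fell on CDAHFD, Itgam rose, and Cd5l remained among the most abundant of the set. Each is the stretch from 250 bases before to 50 bases after the transcript start in RefSeq on GRCm38.p6, written 5′ to 3′ on the strand of the gene. Capitals mark matches to 3 short words searched on both strands: GAGGAAGT for PU.1, TGCTGAC for a MAF site and GTGGGAA for RBPJ. Clec4f lies at chr6:83656067-83656366 on the minus strand, Timd4 at chr11:46810549-46810848, Cd5l at chr3:87357631-87357930 and Itgam at chr7:128062390-128062689, the last 3 on the plus strand.
Clec4f: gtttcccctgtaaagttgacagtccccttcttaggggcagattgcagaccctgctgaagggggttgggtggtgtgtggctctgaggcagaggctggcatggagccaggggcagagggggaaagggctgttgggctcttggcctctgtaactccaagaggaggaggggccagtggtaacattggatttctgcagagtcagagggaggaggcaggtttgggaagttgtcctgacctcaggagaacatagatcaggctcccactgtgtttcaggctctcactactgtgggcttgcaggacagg
Timd4: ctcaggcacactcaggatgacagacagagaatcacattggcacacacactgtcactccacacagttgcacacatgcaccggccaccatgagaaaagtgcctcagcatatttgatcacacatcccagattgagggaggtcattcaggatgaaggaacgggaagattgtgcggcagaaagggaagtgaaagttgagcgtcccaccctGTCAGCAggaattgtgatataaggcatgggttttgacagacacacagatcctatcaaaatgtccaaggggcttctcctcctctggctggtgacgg
Cd5l: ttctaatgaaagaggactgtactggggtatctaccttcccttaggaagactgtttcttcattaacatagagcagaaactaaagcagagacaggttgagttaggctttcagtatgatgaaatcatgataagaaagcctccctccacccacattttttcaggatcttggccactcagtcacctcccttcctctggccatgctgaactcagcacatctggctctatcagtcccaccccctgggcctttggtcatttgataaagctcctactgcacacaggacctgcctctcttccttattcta
Itgam: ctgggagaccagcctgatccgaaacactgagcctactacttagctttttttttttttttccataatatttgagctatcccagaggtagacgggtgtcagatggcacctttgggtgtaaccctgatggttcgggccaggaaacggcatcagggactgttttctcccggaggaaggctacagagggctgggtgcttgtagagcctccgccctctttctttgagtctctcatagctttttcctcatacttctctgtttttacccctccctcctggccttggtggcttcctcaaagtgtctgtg

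Of these 4 promoters, that of Timd4 held a match, to the MAF word on the antisense strand at position -45 from the start. Over all 32851 promoters in the RefSeq table, 4.67% held the MAF word, 3.20% the PU.1 word and 6.38% the RBPJ word. A promoter entry was found for 8 of the 10 genes, and 6 of these 8 held none of the words. Ly6c2, the remaining gene with a match, held the PU.1 word on the sense strand at positions -142 and -8 from a start that lies 253 bases from the start in the expression table. A match is a description of the letters and not of binding.

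Libraries held 15641545 to 23276322 fragments assigned to genes, recovered from FPKM and gene length. The Thbs1 gene, which encodes TSP-1, does not check the genotype labels in these data: on control chow it ranged from 0.058 to 0.326 FPKM in WT and from 0.986 to 1.90 in knockout mice, and on CDAHFD from 3.46 to 6.10 in WT and from 3.05 to 4.40 in knockout mice. It was higher in the libraries labelled knockout on control diet than in WT (log2FC 2.28, FDR = 1.02e-05), and on CDAHFD the difference was not called (log2FC -0.39, FDR = 0.408). FPKM of a whole gene also counts fragments outside an altered part of it. Every direction given for NDKO or HFKO below therefore refers to libraries labelled so. The labelled genotypes differed elsewhere: the mitochondrial tRNA genes mt-Tg and mt-Tr were listed at 0 in all 5 NDKO and all 5 HFKO libraries and above 0 in all 5 NDWT and all 5 HFWT libraries, where they had 1 to 22 fragments. Both genes were named after their values were seen and lie outside Thbs1. This difference therefore does not check the Thbs1 allele, and genotype and line of origin cannot be told apart in it. In HFKO mouse 5 (HFKO5) 7 of the 10 markers were highest among the 5 HFKO libraries. That count does not set it apart, since NDKO1 was highest in its group for 9 and NDWT3 for 8. Results that rest on HFKO5 are given with and without it. A DEG is a gene with a limma FDR under 0.05 over all tested genes and an absolute log2FC above 0.58, on the log2(FPKM + 0.1) scale, which understates changes of low genes. The median log2FC over all tested genes was 0.53 for HFWT against NDWT and 0.50 for HFKO against NDKO, and changes are given also relative to that median.

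On CDAHFD the 10 markers divided. In WT livers 5 rose (Adgre1, Csf1r, Cd68, Ly6c2 and Itgam), 3 fell (Clec4f, Timd4 and Cd163) and 2 (Marco and Cd5l) did not pass the test. In TSP-1 null livers 6 rose, the same 5 and Cd5l, 3 fell, again Clec4f, Timd4 and Cd163, and Marco did not pass. The direction of Cd163, Timd4 and Itgam was fixed by the filter, as said above. Their calls, FDR values and lack of overlap therefore give no support for a change, though the counts here include them. Over all tested genes 48.8% were DEGs in WT livers, 44.1% higher and 4.62% lower, and 45.9% in TSP-1 null livers, 41.9% higher and 4.00% lower. The 10 markers had a median log2FC of 0.83 on the WT and 1.00 on the TSP-1 null background. The HFWT and NDWT libraries did not overlap for 8 markers, and the HFKO and NDKO libraries for 7, against 56.2% and 57.8% of all tested genes. The share of genes called higher depended on the scaling: with median of ratios scaling 22.7% of genes were higher and 15.4% lower in WT livers, and 22.2% and 13.6% in TSP-1 null livers, and with quantile normalization 17.3% were higher and 17.6% lower in WT livers, and 16.7% higher and 15.1% lower in TSP-1 null livers. Under both scalings the members called were counted again, and with median of ratios scaling Cd5l was no longer among them. In RNA of whole liver, fewer cells of a type and less RNA per cell cannot be told apart.

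**Figure D1:**
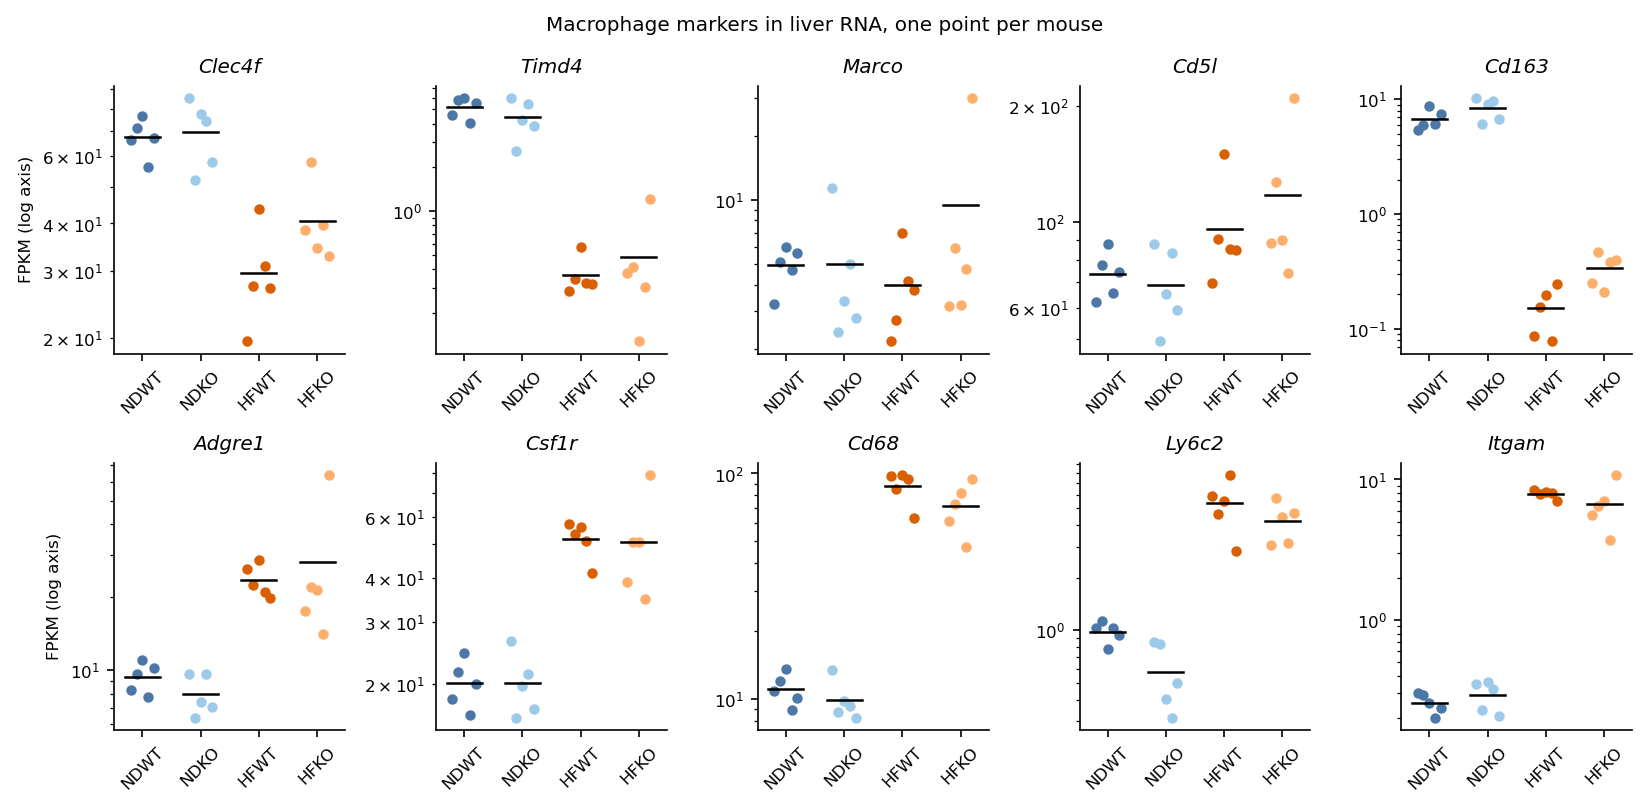
FPKM of the 10 markers on log axes, with 1 point per mouse and a bar at the mean of the 5 mice of each group. Clec4f, Timd4 and Cd163 lie lower in HFWT than in NDWT without overlap, Adgre1, Csf1r, Cd68, Ly6c2 and Itgam lie higher in both CDAHFD groups than in the control diet groups, and HFKO5 is the highest HFKO point for Marco at 30.004 FPKM.

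Clec4f (ENSMUSG00000014542.2, GRCm38 chr6:83644542-83656187, minus strand) encodes a C-type lectin that in mice is largely restricted to Kupffer cells. Its FPKM was 66.3, 71.3, 76.5, 56.3 and 67.1 in the NDWT mice and 19.6, 27.4, 43.6, 30.9 and 27.0 in the HFWT mice. It was 85.2, 51.9, 77.5, 74.1 and 58.0 in NDKO and 38.5, 58.0, 34.5, 39.6 and 32.8 in HFKO. Every HFWT library lay below every NDWT library, whereas in TSP-1 null mice HFKO2 reached the lower NDKO libraries. The mean fell from 67.5 ± 7.43 to 29.7 ± 8.79 FPKM in WT mice (SD, n = 5), which is 44.0% of the control diet level (log2FC -1.22, SE 0.18, FDR = 6.96e-06). It fell from 69.3 ± 13.9 to 40.7 ± 10.1 in TSP-1 null mice, 58.7% of the control diet level (log2FC -0.77, SE 0.18, FDR = 9.11e-04). Relative to the median of all genes the changes were -1.75 and -1.27. Only 266 of the 14524 tested genes had a lower log2FC than Clec4f in WT livers, and 510 had in TSP-1 null livers.

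Timd4 (ENSMUSG00000055546.6, chr11:46810800-46844332, plus strand) encodes TIM4, a receptor for phosphatidylserine on dying cells that long-resident Kupffer cells carry. On control diet the NDWT mice had 4.55, 5.85, 5.97, 4.02 and 5.56 FPKM and the NDKO mice 5.95, 2.57, 4.26, 5.41 and 3.82. On CDAHFD the HFWT mice had 0.282, 0.342, 0.567, 0.323 and 0.319 FPKM and the HFKO mice 0.375, 0.412, 0.128, 0.303 and 1.21, from 5 to 50 fragments per library. The diet groups did not overlap in either genotype. The mean fell from 5.19 ± 0.859 to 0.367 ± 0.114 FPKM in WT mice, a 14.2-fold lower mean (log2FC -3.52, SE 0.32, FDR = 1.09e-08), and from 4.40 ± 1.34 to 0.485 ± 0.418 in TSP-1 null mice, a 9.08-fold lower mean (log2FC -3.13, SE 0.32, FDR = 5.95e-08). In WT livers 28 tested genes, and in TSP-1 null livers 36, had a lower log2FC. Since Timd4 could not pass the filter without the control diet libraries, these FDR values and ranks describe it and do not test a fall.

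Cd163 (ENSMUSG00000008845.3, chr6:124304651-124330527, plus strand) encodes the scavenger receptor for hemoglobin bound to haptoglobin, and it had the largest fall of the 10. The NDWT mice had 5.37, 6.03, 8.80, 6.16 and 7.40 FPKM and the NDKO mice 10.2, 6.12, 9.13, 9.61 and 6.78. On CDAHFD the HFWT mice had 0.087, 0.154, 0.198, 0.078 and 0.245 FPKM and the HFKO mice 0.252, 0.470, 0.210, 0.383 and 0.397. These low values rest on 7 to 19 fragments per HFWT library and 17 to 34 per HFKO library, and no library reached the control diet range. The mean fell from 6.75 ± 1.36 to 0.152 ± 0.0715 FPKM in WT mice, 2.26% of the control diet level (log2FC -4.79, SE 0.21, FDR = 8.38e-13), and from 8.38 ± 1.82 to 0.342 ± 0.108 in TSP-1 null mice, 4.09% of it (log2FC -4.27, SE 0.21, FDR = 4.40e-12). With 10 tested genes below it in WT and 16 in TSP-1 null livers, Cd163 lay near the lower end of all log2FC values. As it passed the filter only through control diet libraries, these FDR values and ranks describe Cd163 and do not test a fall. Its size depended on the settings: in WT livers the log2FC was -5.48 with a pseudocount of 0.01, -2.74 with a pseudocount of 1 and -5.84 with quantile normalization.

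Marco and Cd5l, the other Kupffer cell markers, were not called lower in either genotype. Marco (ENSMUSG00000026390.1, chr1:120474538-120505084, minus strand) encodes a scavenger receptor that binds bacteria and particles. Its FPKM was 3.25, 5.10, 6, 4.67 and 5.63 in NDWT and 2.16, 2.73, 6.98, 4.17 and 3.76 in HFWT, which overlapped. In TSP-1 null mice it was 11.3, 2.40, 3.34, 5.01 and 2.79 on control diet and 3.17, 5.96, 3.22, 4.72 and 30.004 on CDAHFD, with 1 high mouse in each group. The log2FC was -0.39 in WT (95% interval -1.45 to 0.66, FDR = 0.493) and 0.54 in TSP-1 null mice (-0.51 to 1.60, FDR = 0.343). The latter was -0.02 without HFKO5, and both intervals hold changes of either sign. Relative to the median of all genes the changes were -0.92 and 0.046, and in WT mice the log2FC was -0.94 with median of ratios scaling (FDR = 0.111) and -1.09 with quantile normalization (FDR = 0.0746).

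Cd5l (ENSMUSG00000015854.6, chr3:87357881-87371074, plus strand) encodes AIM, a secreted protein of tissue macrophages that regulates their survival and lipid handling. Its FPKM was 62.4, 77.8, 87.8, 65.9 and 74.4 in NDWT and 69.9, 90.3, 150.3, 85.2 and 84.8 in HFWT. In NDKO it was 87.7, 49.3, 65.4, 83.5 and 59.3, and in HFKO 88.4, 127.3, 90.1, 74.0 and 208.9. The groups overlapped in both genotypes. The log2FC was 0.34 in WT (95% interval -0.16 to 0.85, FDR = 0.205) and 0.70 in TSP-1 null mice (SE 0.24, FDR = 0.0142), which passed the test. Without HFKO5 the latter was 0.46 (FDR = 0.0520), and with median of ratios scaling it was 0.16 (FDR = 0.583), so the call rested on that library and on the scaling. With that scaling the value in WT mice was -0.22. Relative to the median of all genes the changes were -0.19 and 0.20.

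The 3 general macrophage markers rose in both genotypes. Adgre1 (ENSMUSG00000004730.8, chr17:57358686-57483529, plus strand) encodes F4/80, an adhesion G protein-coupled receptor used to identify mouse macrophages. Its FPKM was 8.30, 9.62, 11.028, 7.76 and 10.2 in NDWT and 26.1, 22.4, 28.4, 21.1 and 19.9 in HFWT. It was 9.65, 6.35, 7.35, 9.60 and 7.01 in NDKO and 17.5, 22.1, 21.4, 14.049 and 64.1 in HFKO. All CDAHFD mice lay above all control diet mice. The mean was 2.51-fold higher in HFWT than in NDWT (log2FC 1.32, SE 0.27, FDR = 2.27e-04) and 3.49-fold higher in HFKO than in NDKO (log2FC 1.58, SE 0.27, FDR = 3.62e-05), where the log2FC was 1.22 without HFKO5.

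Csf1r (ENSMUSG00000024621.9, chr18:61105572-61132149, plus strand), the receptor named above, had an FPKM of 18.1, 21.7, 24.5, 16.3 and 19.9 in NDWT and 57.1, 53.5, 56.0, 51.1 and 41.3 in HFWT. It was 26.6, 16.0, 19.8, 21.3 and 17.0 in NDKO and 39.0, 50.9, 50.8, 34.9 and 79.0 in HFKO. The diets did not overlap. The means rose 2.58-fold in WT (log2FC 1.37, SE 0.18, FDR = 1.36e-06) and 2.53-fold in TSP-1 null mice (log2FC 1.30, SE 0.18, FDR = 2.87e-06). An exon of Hmgxb3 overlaps Csf1r on the opposite strand, and whether the counting used strand is not given in the sources used here.

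Cd68 (ENSMUSG00000018774.7, chr11:69664213-69666153, minus strand) encodes a glycoprotein of macrophage endosomes and lysosomes. Its FPKM was 10.8, 12.0, 13.5, 8.95 and 10.1 in NDWT and 97.5, 85.6, 98.8, 94.958 and 63.6 in HFWT. In NDKO it was 13.4, 8.75, 9.74, 9.26 and 8.22, and in HFKO 61.7, 73.1, 82.2, 47.0 and 94.7. Of the general markers Cd68 had the largest rise, 7.96-fold in WT (log2FC 2.98, SE 0.17, FDR = 2.28e-11) and 7.27-fold in TSP-1 null mice (log2FC 2.83, SE 0.17, FDR = 6.06e-11). Relative to the median of all genes Adgre1 rose by 0.79, Csf1r by 0.83 and Cd68 by 2.45 on the log2 scale in WT livers. In those livers 2943 tested genes had a larger log2FC than Adgre1 and 437 had a larger log2FC than Cd68.

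Ly6c2 and Itgam also rose. Ly6c2 (ENSMUSG00000022584.8, chr15:75108160-75111684, minus strand) encodes the Ly6C surface protein of inflammatory monocytes. The NDWT mice had 1.025, 1.13, 0.776, 1.025 and 0.945 FPKM, and the HFWT mice 5.88, 4.67, 5.515, 7.81 and 2.83. The NDKO mice had 0.852, 0.829, 0.403, 0.314 and 0.497 FPKM, and the HFKO mice 3.07, 5.70, 4.47, 3.18 and 4.68. The diet groups did not overlap, though the control diet values rest on 4 to 19 fragments per library. The means were 5.45-fold higher in HFWT (log2FC 2.27, SE 0.25, FDR = 1.62e-07) and 7.29-fold higher in HFKO (log2FC 2.71, SE 0.25, FDR = 1.71e-08). Ly6c2 shares sequence with its neighbor Ly6c1: 581 of its 2714 transcript words of 31 bases (21.4%) also occur in Ly6c1 and 84 in Ly6a. Fragments of these genes may therefore have been lost or divided in counting. Ly6c1, at 0.102 to 1.23 FPKM, was called higher in HFWT (log2FC 1.36, FDR = 0.00229) but not in HFKO (log2FC 0.64, FDR = 0.121). On control diet Ly6c1 exceeded 0.5 FPKM only in NDKO3 (0.807), so it could not pass the filter without the CDAHFD libraries.

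Itgam (ENSMUSG00000030786.12, chr7:128062640-128128160, plus strand) encodes CD11b, the integrin alpha chain of complement receptor 3, which monocytes, neutrophils and NK cells carry and which resident Kupffer cells have at a low level. Its FPKM was 0.303, 0.291, 0.255, 0.201 and 0.236 in NDWT and 8.37, 7.95, 8.15, 8.07 and 7.02 in HFWT, where the 5 mice lay close together. It was 0.349, 0.228, 0.361, 0.324 and 0.209 in NDKO and 5.63, 6.49, 7.03, 3.72 and 10.8 in HFKO. Fragments numbered 22 to 46 per control diet library and 469 to 1315 per CDAHFD library. Itgam had the largest rise of the 10, with means of 0.257 ± 0.0414 and 7.91 ± 0.520 in WT mice, a 30.8-fold difference (log2FC 4.49, SE 0.19, FDR = 6.63e-13), and of 0.294 ± 0.0707 and 6.74 ± 2.60 in TSP-1 null mice, a 22.9-fold difference (log2FC 4.05, SE 0.19, FDR = 3.40e-12). Only 55 tested genes had a larger log2FC in WT livers and 75 in TSP-1 null livers. Because Itgam passed the filter only through CDAHFD libraries, these FDR values and ranks describe it and do not test a rise. The exons of Itgam are shared in part with the gene model Gm49368 on the same strand, which holds 67.2% of its words of 31 bases and is not analysed here.

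**Figure D2:**
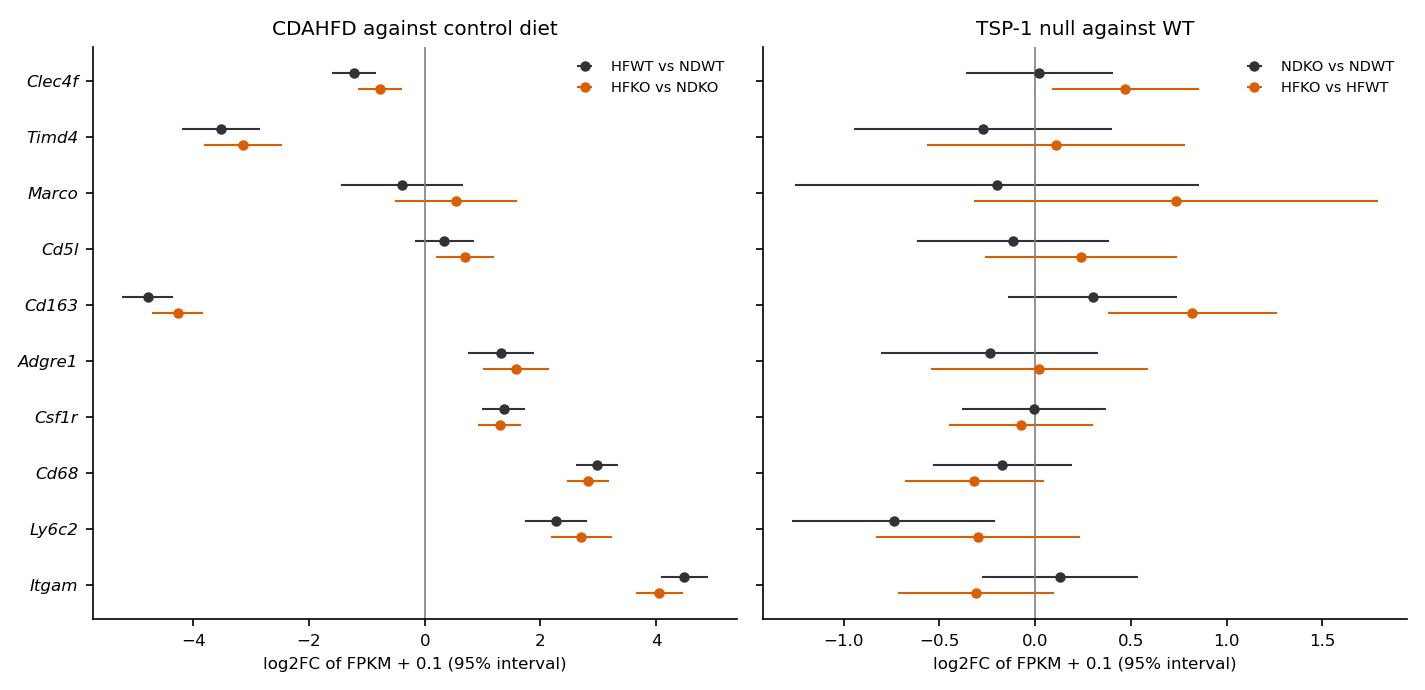
The log2FC of FPKM + 0.1 for each marker with its 95% interval from limma, for CDAHFD against control diet on the left and TSP-1 null against WT on the right, where the axis is narrower. The diet values run from -4.79 for Cd163 to 4.49 for Itgam in WT mice, while the genotype values run from -0.74 for Ly6c2 on control diet to 0.82 for Cd163 on CDAHFD.

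Because FPKM is scaled by transcript length, the levels of the markers could be ordered within a group. The places of Ly6c2 and Itgam are less sure, since fragments shared with other genes may have been lost or divided in counting. In NDWT Cd5l (mean 73.7 FPKM) and Clec4f (67.5) were highest and overlapped, followed without overlap by Csf1r (20.1) and then Cd68 (11.1). Cd68, Adgre1, Cd163, Timd4 and Marco formed a run in which each overlapped the next, and Ly6c2 (0.980) and Itgam (0.257) were lowest, each apart from its neighbors. NDKO had the same upper 4 with Clec4f (69.3) and Cd5l (69.0) in the other order, and there Ly6c2 (0.579) and Itgam (0.294) overlapped. In HFWT Cd5l (96.1) and Cd68 (88.1) overlapped at the top, Csf1r (51.8), Clec4f (29.7) and Adgre1 (23.6) came next, and Itgam (7.91), Ly6c2 (5.34) and Marco (3.96) overlapped in turn. Timd4 (0.367) and Cd163 (0.152) were lowest in HFWT without overlap. In HFKO neighbors overlapped throughout, except that Timd4 (0.485) lay below Ly6c2 (4.22), and Cd163 (0.342) was again lowest.

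Ratios of a pair of markers within a library do not depend on how libraries are scaled to each other, and 3 were compared by two-sided exact permutation tests of the mice of 2 groups, whose smallest possible p is 0.00794, adjusted over 12 tests. The pairs were chosen with earlier results of these data known, so their p values are descriptions and give no support of their own. The ratio of Clec4f to Adgre1, a Kupffer cell marker against a marker of all macrophages, was 6.58 to 7.99 in NDWT and 0.753 to 1.54 in HFWT. It was 7.71 to 10.5 in NDKO and 0.512 to 2.82 in HFKO. On the log2 scale it fell by 2.54 in WT and by 2.35 in TSP-1 null mice (exact permutation p = 0.00794 and adjusted p = 0.0159 for each, 5 mice per group). The ratio of Timd4 to Clec4f fell as well. It was 0.0686 to 0.0828 in NDWT and 0.0105 to 0.0144 in HFWT (log2 difference -2.29), and 0.0496 to 0.0731 in NDKO and 0.00371 to 0.0368 in HFKO (log2 difference -2.36), each with an adjusted exact permutation p of 0.0159. Timd4 thus fell more than Clec4f did in each genotype, as a description, since Timd4 could not pass the filter without the control diet libraries. The ratio of Itgam to Adgre1 was 0.0231 to 0.0365 in NDWT and 0.287 to 0.382 in HFWT (log2 difference 3.17), and 0.0298 to 0.0491 in NDKO and 0.169 to 0.328 in HFKO (log2 difference 2.48). It is given as a description, since Itgam passed the filter only through the CDAHFD libraries.

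**Figure D3:**
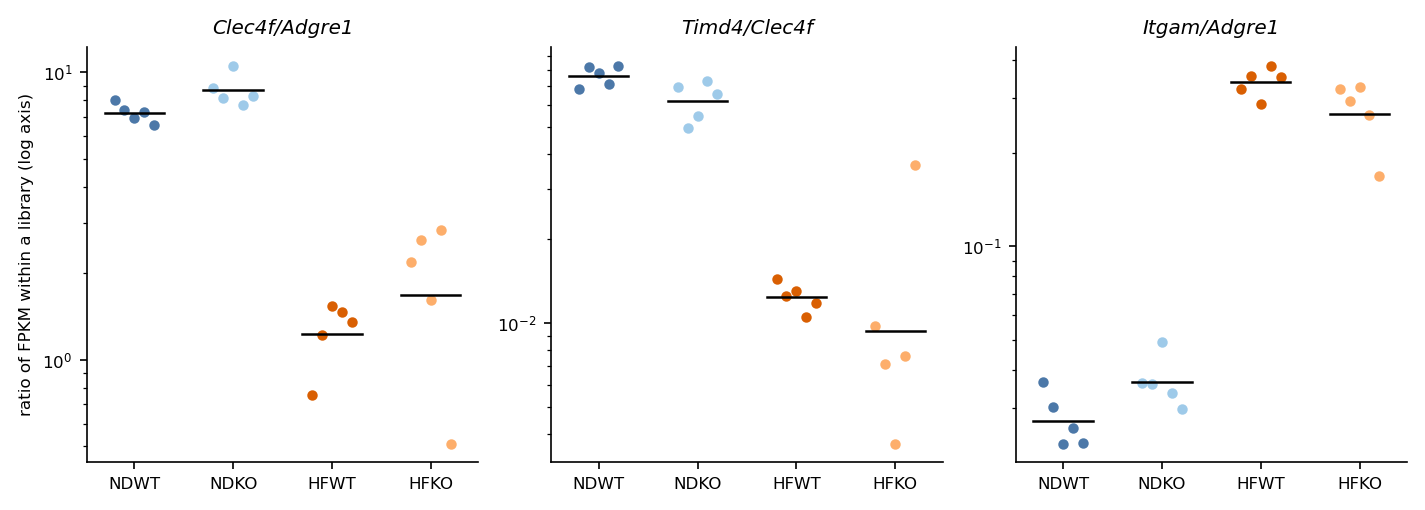
Ratios of FPKM within each library on log axes, with 1 point per mouse and a bar at the geometric mean of the group. In all 3 panels the control diet and CDAHFD groups are apart, with medians of 7.26 in NDWT and 1.36 in HFWT for Clec4f to Adgre1, and HFKO5 is the lowest HFKO point there at 0.512 and the highest for Timd4 to Clec4f at 0.0368.

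TSP-1 null livers were compared with WT livers on each diet. No marker was a DEG by limma on control diet, where 4.77% of all tested genes were, or on CDAHFD, where 0.496% were, and the median log2FC of the markers was -0.14 and 0.07 beside -0.07 and -0.10 for all genes. At an unadjusted p under 0.05 there was 1 marker on control diet, Ly6c2, with a mean of 0.980 ± 0.131 FPKM in NDWT and 0.579 ± 0.247 in NDKO (log2FC -0.74, 95% interval -1.27 to -0.21, FDR = 0.0613), where the groups overlapped at 4 to 19 fragments. It passed the threshold in 4 of 29 alternatives: without NDKO1, without NDKO2, without HFWT5 and with a pseudocount of 0.01. On CDAHFD there were 2, Cd163 (log2FC 0.82, 95% interval 0.38 to 1.26, FDR = 0.0646) and Clec4f (log2FC 0.47, 95% interval 0.09 to 0.85, FDR = 0.198). The mean of Cd163 was 2.25-fold higher in HFKO than in HFWT, at levels of 7 to 34 fragments with 1 group reaching into the other, and it passed the threshold without HFWT5 (log2FC 0.95, FDR = 0.0485). For the general markers the intervals on CDAHFD were -0.55 to 0.59 for Adgre1, -0.45 to 0.30 for Csf1r and -0.68 to 0.04 for Cd68. Their log2FC was 0.02, -0.08 and -0.32 with HFKO5 and -0.34, -0.25 and -0.43 without it. Ly6c2 went from -0.30 to -0.35 and Itgam from -0.31 to -0.50. Without HFKO5 the Kupffer cell markers had 0.54 (Clec4f), -0.24 (Timd4), 0.17 (Marco), 0.005 (Cd5l) and 0.77 (Cd163). No marker was a DEG by limma without HFKO5, which was left out because of its values. The genotype comparisons share libraries with the diet comparisons.

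The difference of the genotype effect between diets, an interaction term, was called for 0.647% of all tested genes and for none of the 10 markers by limma, with 0 at an unadjusted p under 0.05. It ranged from -0.44 for Itgam (95% interval -1.01 to 0.14) to 0.94 for Marco (-0.56 to 2.43), which was 0.37 without HFKO5, and the median was 0.37 beside -0.03 for all genes. Of the ratios, that of Clec4f to Adgre1 was higher in NDKO than in NDWT by 0.26 on the log2 scale (exact permutation p = 0.0159, adjusted p = 0.0272, 5 mice per group), with NDKO4 inside the NDWT range. Leaving out any of 5 libraries (NDWT2, NDWT3, NDWT4, NDWT5 or NDKO3) took its adjusted p past 0.05, and the highest of these was 0.0680. On CDAHFD the same ratio differed by 0.45 (exact permutation p = 0.381), and without HFKO5 by 0.88 (adjusted exact permutation p = 0.0119), since the other 4 HFKO mice, at 1.61 to 2.82, all lay above the HFWT mice. Timd4 to Clec4f differed by -0.36 on CDAHFD (exact permutation p = 0.492) and by -0.78 without HFKO5 (adjusted exact permutation p = 0.0119). HFKO5 was left out because of its values, so both results without it are descriptions of that choice.

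In HFKO5 Marco was 7.56 times the median of the other 4 HFKO mice, Timd4 3.56 times, Adgre1 3.29 times, Cd5l 2.34 times, Itgam 1.79 times, Csf1r 1.76 times and Cd68 1.40 times. Cd163 and Ly6c2, at 1.25 and 1.22 times, were second highest there, and Clec4f, at 0.840 times, was the lowest of the 5. The mouse therefore carried the most Timd4 and Marco RNA of its group with the least Clec4f RNA. Of the 12 other Kupffer cell genes, Spic, a transcription factor of iron-recycling macrophages, was the highest by this measure at 3.60 times the median. Vsig4, a complement receptor of Kupffer cells, was the lowest at 1.12 times. For these 12 genes together the summed FPKM was 389 in HFKO5 and 253 to 333 in the other 4. The summed FPKM of 13 other macrophage genes was 2477 in HFKO5 and 1152 to 1857 in the other 4, that of 5 hepatocyte markers was 34911 against 39291 to 46362, and Ptprc, which marks all leukocytes, was 13.4 against 5.32 to 8.77 FPKM. HFKO5 was also above the other 4 in the sums for B cells (10.2 against 5.43 to 7.33), T cells (7.07 against 1.91 to 6.50), dendritic cells (35.0 against 17.7 to 29.9), stellate cells (48.0 against 36.1 to 40.9), sinusoidal endothelium (77.6 against 54.3 to 74.7) and the other monocyte genes (65.2 against 34.6 to 46.0), but not for neutrophils (32.5 against 17.3 to 34.9), NK cells (1.73 against 1.28 to 2.42) or cholangiocytes (28.9 against 17.7 to 34.4). The part of these in the values of HFKO5 was not tested.

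Most of the markers also varied together among mice of the same group. NDWT3 had the highest value of its group for 8 of the 10 markers and NDKO1 for 9. Over the 20 libraries, the deviations of log2 values from group means correlated between -0.37 and 0.91 over the 45 pairs of markers (median 0.57), as a description, since all genes of a library share its depth and cell makeup. Csf1r and Cd68 had the highest value, 0.91, whereas those of Ly6c2 ran from -0.37 with Cd163 to 0.54 with Cd68. No median over pairs of other genes was taken. Clec4f correlated with Timd4 at 0.36, with Marco at 0.35 and with Cd5l at 0.51 over 20 libraries, and at 0.80, 0.80 and 0.88 without HFKO5. Clec4f and Adgre1 correlated at 0.03, and at 0.50 without HFKO5. Among all tested genes the most alike by this measure was Vsig4 for Clec4f (0.83, before Spp2 and Ms4a8a), Ctla2b for Timd4 (0.91, before Ptgs1 and Emr4), Cd5l for Marco (0.89, before Cd300e and Timd4) and Clec4a1 for Cd5l (0.92, before Clec4a3 and Fpr1). It was Smek2 for Cd163 (0.82, before Snx10 and Nampt), Trpm2 for Adgre1 (0.96, before Itgal and Fyb) and Sirpa for Csf1r (0.97, before Itgal and Themis2). It was Npc2 for Cd68 (0.94, before Itgb2 and Spi1) and Ncf4 for Itgam (0.94), with Itgb2 also among the genes most alike to Itgam (0.93). Rhbdf2 and A330040F15Rik were among those most alike to Ly6c2 (0.81 each).

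**Figure D4:**
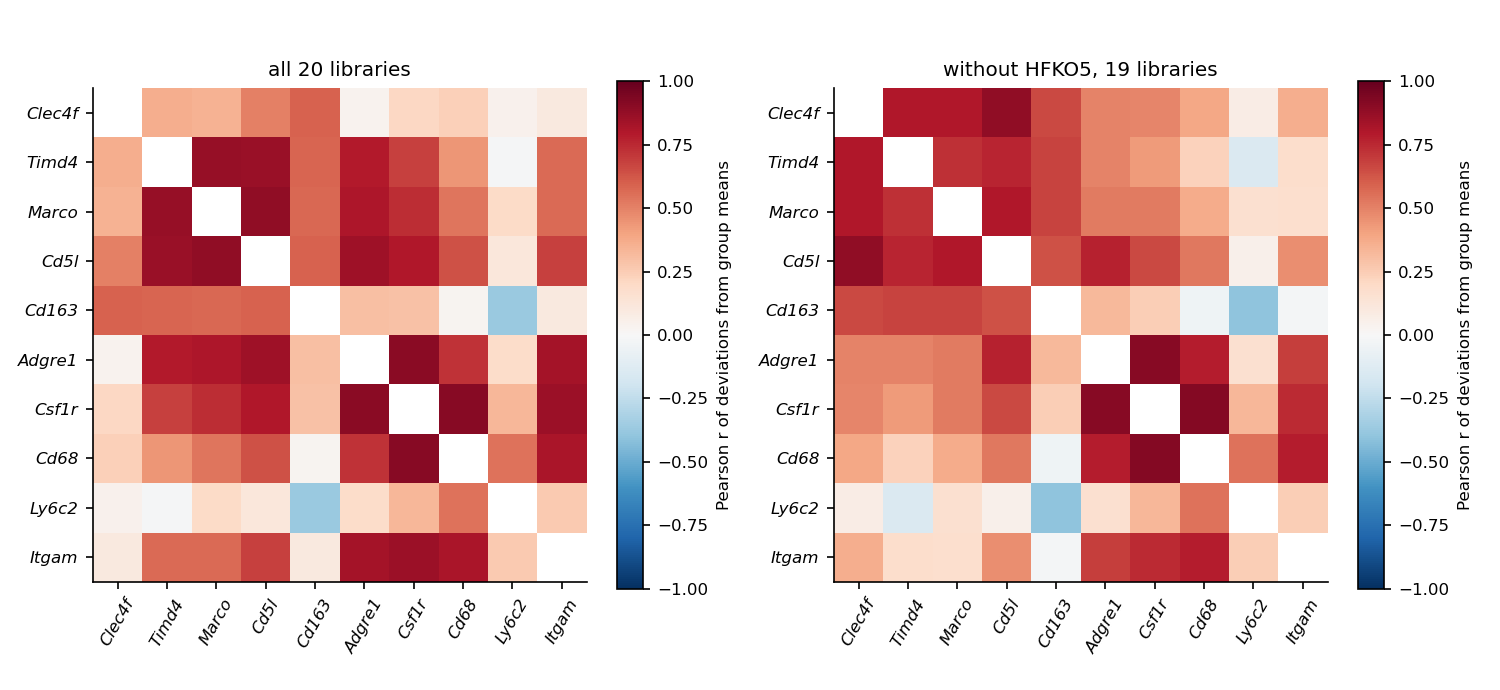
Pearson correlation of deviations from group means on the log2(FPKM + 0.1) scale for each pair of the 10 markers, over all 20 libraries on the left and without HFKO5 on the right, with red for positive and blue for negative values. Without HFKO5 the median over pairs is 0.50 and the square of Clec4f with Timd4 deepens from 0.36 to 0.80.

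Other genes of the same cells were described from fixed lists, by counts and medians, beside 44.1% of all tested genes higher in HFWT and 41.9% higher in HFKO. Of 12 other Kupffer cell genes, 3 rose and none fell in HFWT (median log2FC 0.24 against 0.53 for all genes), and 7 rose and 1 fell in HFKO (median 0.63 against 0.50). Those with the largest change were Cd207, the lectin langerin (1.98 in WT, SE 0.27, FDR = 2.04e-06), Hmox1, which degrades heme (1.71, SE 0.16, FDR = 1.22e-08), and Il18bp, which binds interleukin 18 (0.68, SE 0.19, FDR = 0.00316). C6 fell in HFKO (log2FC -0.63, FDR = 0.00503). Spic, called higher in HFKO, had medians below 0.5 FPKM in both control diet groups, so it could not pass the filter without CDAHFD libraries. RNA of whole liver does not show which cells the RNA of these 12 genes came from. Vsig4 and Folr2, the folate receptor of resident macrophages, were not called, at -0.36 (FDR = 0.0785) and -0.48 (FDR = 0.0448, short of the fold threshold) in WT mice. Id3, a transcription factor that Kupffer cells need and other liver cells also express, was the only gene of these lists called between genotypes, lower in NDKO than in NDWT (log2FC -1.36, SE 0.26, FDR = 0.00213).

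All 13 other macrophage genes rose in both genotypes, and their median log2FC was 2.12 on the WT and 2.15 on the TSP-1 null background. Lyz2, which encodes lysozyme, rose by 4.28 and 3.77 on the log2 scale, Cd14, a receptor for endotoxin, by 3.62 and 3.02, and Ctss, a lysosomal protease, by 3.53 and 3.25. Of 8 ligands of CSF1R and macrophage transcription factors, 7 rose in WT (median 1.64) and 6 in TSP-1 null livers (median 1.57), among them Runx1 (2.67 and 2.59), Spi1, which encodes PU.1 (2.51 and 2.08), and Irf8 (2.40 and 2.18). Of 10 other monocyte genes, 10 rose in WT (median 2.44) and 9 in TSP-1 null livers (median 2.26). Of these 10, 6 (Ccr2, Chil3, F13a1, Cx3cr1, Spn and Ms4a4c) passed the filter only through CDAHFD libraries, as did Runx1, so they could pass only by being higher there and the counts and medians of these lists give no support for a rise. Values of the monocyte genes were, on the log2 scale, 4.94 and 5.08 for Cx3cr1, the fractalkine receptor, 3.41 and 3.42 for Ccr2, the receptor that draws monocytes to CCL2, and 2.58 and 2.47 for Spn, the leukocyte surface protein CD43. Except for Id3 no gene of these 4 lists was called between genotypes on either diet.

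Markers of several other cells also differed between diets, in counts to be read against the 44.1% and 41.9% of all tested genes that rose. Hepatocyte markers were present at a summed 27503 to 46849 FPKM in every library, and of 5, 1 fell in WT and 2 in TSP-1 null livers. In WT livers 5 of 5 stellate cell markers, 4 of 4 cholangiocyte, 4 of 4 B cell, 4 of 5 T cell, 6 of 7 dendritic cell and 1 of 5 sinusoidal endothelial markers rose, and in TSP-1 null livers the counts were the same but for endothelium, with 2. The endothelial counts lay at or below the share over all genes. Flt3, Xcr1, Cd209a and Siglech of the dendritic cell list, Cd8a, Ms4a1, Krt7 and Ncr1 passed the filter only through CDAHFD libraries, so their direction was fixed by it. Cd3d, Cd3e, Itgax and Krt19 had medians below 0.5 FPKM in both control diet groups, so they too could not pass it without CDAHFD libraries. All 4 neutrophil markers that passed the filter rose in both genotypes, and the sum of the 6 neutrophil markers was 1.92 to 6.13 FPKM on control diet and 17.3 to 40.5 on CDAHFD. Of the other neutrophil markers, Cxcr2 did not pass the filter and Ly6g was listed at 0 in 5 NDWT, 4 NDKO, 5 HFWT and 2 HFKO libraries. Of 3 NK cell markers 1, Ncr1, passed the filter and rose in both, while Klrb1c and Eomes did not pass, and their sum was 0.094 to 0.308 on control diet and 0.899 to 2.42 on CDAHFD. Ptprc rose by 2.16 and 2.23 on the log2 scale. Itgam, Csf1r and Cd68 are also expressed by some of these cells, and the part of those cells in the rise of the 3 genes was not tested.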

How the data were processed

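Liver poly(A) RNA of 20 mice was sequenced on an Illumina HiSeq instrument. The authors processed the reads with QuickRNASeq (the submitters' processing notes name STAR 2.5.2, featureCounts and Subread 1.5.1) and deposited FPKM per gene to 3 decimals, which were used unchanged. Those notes give GRCh38, but the coordinates in the table are mouse GRCm38. All 20 value columns were mapped to samples and 0 were left over. Fragments (15641545 to 23276322 per library, median 18950482.5) were worked back from FPKM and gene length with the total at which values become whole, and describe counting error only. Libraries carry no molecular identifiers.

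Groups followed the labels, and replicates are separate mice. For the 14524 genes that exceeded 0.5 FPKM in 5 or more libraries, log2(FPKM + 0.1) was fitted with limma 3.58.1 (R 4.3.3, eBayes with trend, 20 libraries, 4 group means). DEGs passed a two-sided test at FDR 0.05 (Benjamini-Hochberg) with log2FC beyond 0.58 in either direction. The fit was tested on simulated data. Ratios were compared by exact permutation tests. Correlations, ranges and figures were made in Python 3.11.15 with pandas 2.3.3, numpy 2.4.6 and matplotlib 3.10.9. Deviations of same-numbered mice of different groups correlated from -0.21 to 0.27 (median 0.00376), and differently numbered mice were not compared. No within-group pair of libraries agreed within sampling noise (lowest chi-square per degree of freedom 13.0).

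The members, the gene lists and the ratios were chosen with earlier results of these data known. Named are all 10 members; of each list the 3 DEGs with the largest absolute log2FC in WT mice, genes under the filter and Ly6c1; and per member the 3 genes most correlated with it, of which some are not reported here. Vsig4, Folr2, C6, Id3, Spic, mt-Tg and mt-Tr were named after their values were seen. Promoters are from RefSeq. Alternatives were pseudocounts of 0.01 and 1, no filter or FPKM above 1, median of ratios scaling, quantile normalization, only the groups compared, eBayes without trend, no fold threshold, a replicate block and each library left out.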

Additional observations from a re-analysis of the deposited data

Results flagged for a closer look

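Of 52 groups of 5 mice examined for a sample far from the others (chance flags about 1 in 20), 2 had one. Timd4 in HFWT was highest in HFWT3, at 0.567 FPKM against 0.282 to 0.342 in the other 4 mice. Marco in HFKO was highest in HFKO5, at 30.004 FPKM against 3.17 to 5.96 in the other 4.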

How the results depend on the processing

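The 8 markers called in WT and the 9 called in TSP-1 null mice on CDAHFD stayed at those counts under every alternative but median of ratios scaling and the fit without HFKO5, each of which gave 8 in TSP-1 null mice. Without 1 library the counts were 8 to 8 and 8 to 9. These counts include Cd163, Timd4 and Itgam, whose direction was fixed by the filter. Between genotypes a pseudocount of 0.01 gave 1 marker on control diet (Ly6c2, log2FC -0.84, FDR = 0.0479) and 1 on CDAHFD (Cd163, 1.18, FDR = 0.0462), and leaving out 1 library gave 0 to 1 in each. Replicate numbers were not taken to pair the mice. Same-numbered mice correlated from -0.21 to 0.27 (median 0.00376), over 0.1 in 6 of 20 pairs, and differently numbered mice were not compared. With the replicate block 8, 9, 0, 0 and 0 markers were called in the 4 comparisons and the interaction, as without it.

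Of the log2FC values of members 26 changed sign, none of them called in the fit as reported. With median of ratios scaling these were Cd5l in WT mice (-0.22) and Csf1r between genotypes on control diet (0.068) and on CDAHFD (0.026). With quantile normalization they were Marco in TSP-1 null mice (-0.038) and Csf1r between genotypes on control diet (0.051), and with a pseudocount of 1 the interaction of Cd163 (-0.050). With 1 library left out, the log2FC of Marco in TSP-1 null mice ran from -0.023 to 0.90, and between genotypes on control diet that of Csf1r from -0.11 to 0.070 and that of Clec4f from -0.059 to 0.12. Between genotypes on CDAHFD Adgre1 ran from -0.34 to 0.21, Csf1r from -0.25 to 0.045 and Timd4 from -0.24 to 0.39, and the interaction of Csf1r from -0.24 to 0.052 and of Adgre1 from -0.10 to 0.45. The causes were not tested.

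Among ratios, those of the diet comparisons stayed under an adjusted exact permutation p of 0.05 in every alternative tried. This is a description, since the pairs were chosen with earlier results of these data known. For Itgam to Adgre1 and Timd4 to Clec4f the filter had also fixed the direction of Itgam and of Timd4. Between genotypes on control diet Timd4 to Clec4f (-0.29) and Itgam to Adgre1 (0.37) each had an adjusted exact permutation p of 0.0529. The former passed with a pseudocount of 1 (-0.24, adjusted exact permutation p = 0.0272) and without NDKO4 (0.0238), and the latter without NDWT1 (0.0136). With 1 library left out, the genotype differences on control diet ran from 0.19 to 0.30 for Clec4f to Adgre1, from -0.35 to -0.22 for Timd4 to Clec4f and from 0.28 to 0.45 for Itgam to Adgre1, and on CDAHFD from 0.26 to 0.88 for Clec4f to Adgre1 and from -0.78 to -0.13 for Timd4 to Clec4f. At 7 to 34 fragments, Cd163 on CDAHFD is limited by depth, and so are Timd4 there and Ly6c2 on control diet.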
